A study of Mus musculus with 18 samples.

Results

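The data described here are the mRNA levels of 10 genes of branched-chain amino acid (BCAA) breakdown, Bcat1, Bcat2, Bckdha, Bckdhb, Dbt, Bckdk, Ppm1k, Ivd, Hibch and Hibadh, in 3 adipose preparations of mice on a high-fat diet (HFD). The genes were chosen by symbol for their place in the pathway, with earlier results of these data known. All 10 were found among the 52093 symbols of the deposited tables. Each symbol had 1 row, and all 10 genes passed the filter of a mean of 10 reads in every comparison.

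Leucine, isoleucine and valine are essential amino acids that adipose tissue takes up and burns. Their breakdown starts with a transaminase, which moves the amino group to 2-oxoglutarate and leaves a branched-chain keto acid; Bcat1 encodes the cytosolic and Bcat2 the mitochondrial enzyme. The committed step is the oxidative decarboxylation of the keto acids by the mitochondrial branched-chain keto acid dehydrogenase complex (BCKDH), which is switched off by a kinase (Bckdk) and on by a phosphatase (Ppm1k), and the products then run through separate arms to acetyl-CoA, acetoacetate or succinyl-CoA. In brown fat, mitochondria import BCAAs and oxidize them during thermogenesis, and in white adipocytes they feed lipid synthesis.

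The study collected 18 RNA-seq libraries of wild-type male C57BL/6 mice, noted as 16 weeks old, that had been fed HFD for 12 weeks, with 6 mice in each of 3 groups and no other treatment or allele. The groups were adipocytes isolated from inguinal white adipose tissue (iWAT adipocytes), adipocytes isolated from epididymal white adipose tissue (eWAT adipocytes) and brown adipose tissue (BAT). White fat was digested with collagenase and its floating cell layer was kept, whereas BAT was frozen whole, with its vessels, stroma and any adhering muscle. The white preparations were not free of other cells either. Median sums of endothelial, fibroblast and macrophage markers were higher in iWAT adipocytes than in BAT. In eWAT adipocytes the fibroblast and macrophage sums were higher than in BAT and the endothelial sum was lower. BAT and white fat were also run on different lanes, so that tissue, preparation and lane cannot be told apart in the comparisons with BAT.

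The promoters of Bckdha and Bckdhb, which encode the paired E1 subunits of BCKDH and were both highest in BAT, and of Bcat1, which was lowest in BAT, follow from RefSeq (GRCm38.p6, which is not the mm9 build of the read counts). Each line gives the 250 bases before the most upstream start in the table, on the strand of the gene, with matches to the GC box (GGGCGG on either strand) in capitals.

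Bckdha (chr7:25658762-25659011, minus strand): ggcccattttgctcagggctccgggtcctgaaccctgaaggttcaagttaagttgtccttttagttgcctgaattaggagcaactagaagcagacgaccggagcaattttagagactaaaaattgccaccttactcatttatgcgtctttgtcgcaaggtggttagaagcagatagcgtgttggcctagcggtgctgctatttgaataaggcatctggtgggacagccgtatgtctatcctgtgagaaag

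Bckdhb (chr9:83924887-83925136, plus strand): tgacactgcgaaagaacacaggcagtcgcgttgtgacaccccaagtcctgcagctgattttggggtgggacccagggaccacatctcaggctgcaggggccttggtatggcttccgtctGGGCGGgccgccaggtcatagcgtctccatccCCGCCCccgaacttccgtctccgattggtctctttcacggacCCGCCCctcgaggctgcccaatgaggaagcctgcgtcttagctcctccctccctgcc

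Bcat1 (chr6:145076158-145076407, minus strand): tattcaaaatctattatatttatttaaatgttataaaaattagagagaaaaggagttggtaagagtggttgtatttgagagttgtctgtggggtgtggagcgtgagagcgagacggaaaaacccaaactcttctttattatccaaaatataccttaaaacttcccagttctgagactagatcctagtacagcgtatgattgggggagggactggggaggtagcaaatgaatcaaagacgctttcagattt

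The Bckdhb promoter held 3 GC boxes and had a GC content of 63.2%, against 47.6% for Bckdha and 37.6% for Bcat1, neither of which held one. Among the 9 genes with an entry, all but Dbt, the GC box was found in 4 promoters, Bckdhb, Ppm1k, Hibch and Hibadh, and it was found in 32.7% of all 32851 mouse promoters of the same length. The nuclear receptor half-site AGGTCA was found in Bckdhb and Ppm1k and in 14.0% of all promoters. Its extended form, the estrogen-related receptor element TCAAGGTCA, which holds the half-site, was found in none of the 9 genes and in 0.387% of all promoters; the cAMP response element TGACGTCA (1.55% of all promoters) and the E-box CACGTG (6.02%) were likewise found in none. These searches covered both strands and say only which letters are in these windows.

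Each BAT library had 27402247 to 42518483 reads on the rows, each eWAT library 24655056 to 37438994 and each iWAT library 26768529 to 30166441. The 10 most abundant rows took 43.6 to 54.3% of the reads in BAT but 9.94 to 20.5% in the white adipocytes, so levels in BAT depend strongly on the scaling. RPKM, the reads per length of row and 1 total per file, carries no TMM correction. That total was below the reads on the rows in every BAT library (22935346 against 27402247 in mouse 16). It was above them in every white library (29580381 against 28354340 in iWAT mouse 1). RPKM is thus neither the TMM scale nor that of the reads on the rows. The TMM factors of edgeR, used for all fold changes below unless stated, correct for the abundant rows. Without TMM, the median over all genes of the log2 fold change moved from 0.01 to 0.87 for iWAT adipocytes over BAT and from −0.02 to 0.89 for eWAT adipocytes over BAT, and the share of calls that were higher in white fat rose from 50.65% to 81.8% and from 49.8% to 76.1%. Between the white depots it moved from 0.00 to −0.08. The brown marker list (Ucp1 and 6 others) summed to 2937 to 4301 RPKM in BAT and to at most 50.3 and 17.9 in iWAT and eWAT adipocytes, and the adipocyte list (Adipoq and 5 others) to 784 to 996 RPKM in BAT, 2868 to 4255 in iWAT and 557 to 1954 in eWAT adipocytes.

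In iWAT adipocytes, all 10 genes were expressed above their level in eWAT adipocytes. The median log2 fold change over the 10 genes was 1.05, with a range from 0.18 for Bckdk to 1.60 for Bcat1, beside a median of 0.00 over all 19623 genes tested. By edgeR, 10 of 10 genes were higher in iWAT adipocytes at an adjusted p under 0.05, a threshold that 68.6% of all genes passed in either direction, 34.1% on the iWAT side and 34.5% on the eWAT side. RPKM values of the depots did not overlap for 7 of the 10 genes, against 44% of all genes. With the sequencing lane as a covariate, 10 of 10 genes were also higher in iWAT adipocytes, beside 6433 of all 19623 genes. In bulk RNA, fewer adipocytes and less RNA of these genes per adipocyte cannot be told apart: all 6 adipocyte markers were higher in iWAT adipocytes, with a median log2 fold change of 1.51, and all 7 macrophage markers with a row were higher in eWAT adipocytes, at a median of −2.20. All 6 endothelial markers were also higher in iWAT than in eWAT adipocytes, with a median of 1.67 and sums of 193 to 550 RPKM against 64.1 to 156. Of 6 brown adipocyte markers tested, 5 were higher in iWAT adipocytes and 1 did not pass (median 1.53). Of 4 skeletal muscle markers tested, 3 were higher there and 1 did not pass (median 3.32). The macrophage list (Cd68 and 6 others) summed to 889 to 1342 RPKM in eWAT and 178 to 328 in iWAT adipocytes but 5.82 to 11.4 in BAT, with no marker at or under 3 reads in every library of a tissue. The part of these cells in the depot difference was not tested.

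In BAT, 8 of the 10 genes were higher than in iWAT adipocytes, Bcat1 was lower, and Bcat2 did not pass the test. Against eWAT adipocytes, 9 genes were higher in BAT and Bcat1 was lower. The median log2 fold change of the 10 genes was −1.47 for iWAT adipocytes over BAT and −2.16 for eWAT adipocytes over BAT, where a negative value means a higher level in BAT. Among all genes, 75.3% passed the edgeR threshold for iWAT over BAT (38.1% with more in white fat and 37.2% with more in BAT) and 82.5% for eWAT over BAT (41.1% with more in white fat and 41.4% with more in BAT). RPKM values did not overlap, in either direction, for 8 and 9 of the 10 genes, against 65.3% and 68.4% of all genes. Among these, every white value lay above every BAT value for Bcat1 in both comparisons and for Bcat2 in iWAT adipocytes. The others had every BAT value above every white value. Ppm1k and Ivd, called higher in BAT than in iWAT adipocytes, overlapped there. Without TMM scaling, 6 genes were higher in BAT than in iWAT adipocytes and 2 were lower, and 7 were higher in BAT than in eWAT adipocytes and 2 were lower. Of all genes without TMM, 3054 of 19745 were higher in BAT than in iWAT adipocytes and 13701 were lower. Against eWAT adipocytes, 4066 of 20076 were higher in BAT and 12962 were lower. Measured from the median of all genes, the median of the 10 genes was −1.49 with TMM and −1.49 without it against iWAT adipocytes, and −2.15 and −2.14 against eWAT adipocytes. Scaling shifts all genes of a comparison by about the same amount. These values therefore agree by construction and cannot tell which scaling is right. Both comparisons use the same BAT libraries.

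**Figure D1:**
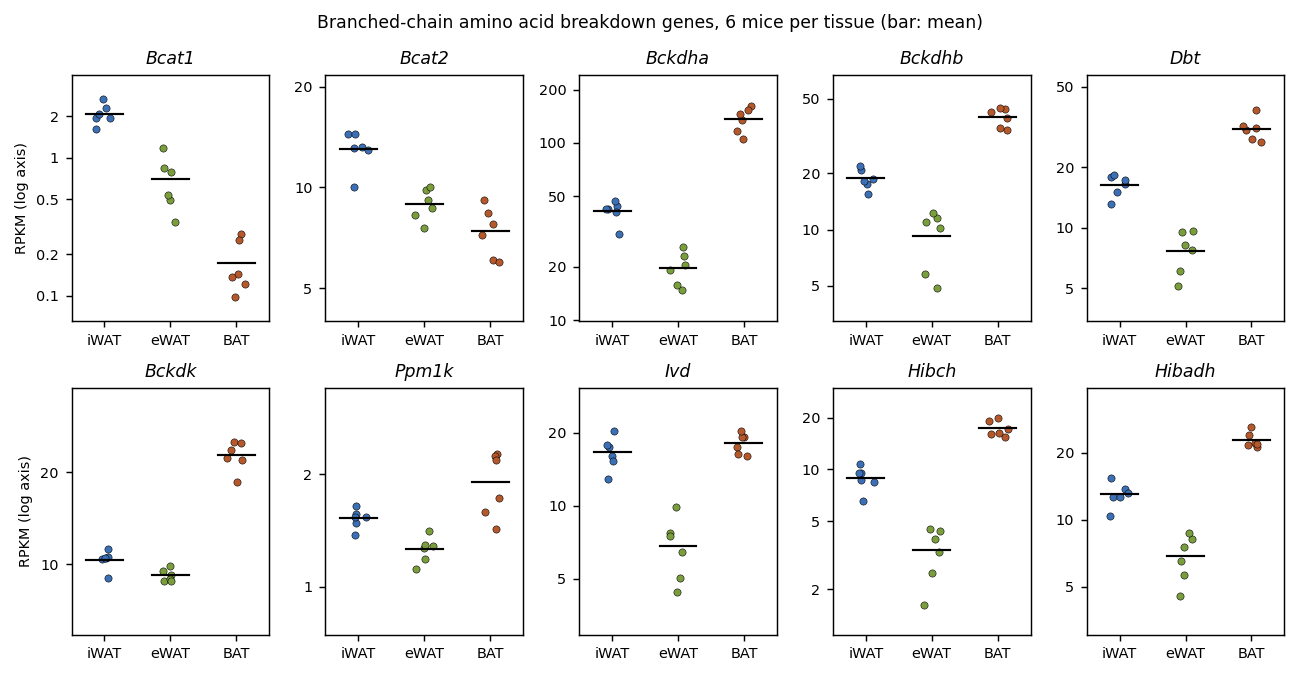
RPKM of each of the 10 genes (log axis) in the 6 mice of each tissue, with 1 point per library and a bar at the mean. On this scale, which has no TMM correction, Bcat1 and Bcat2 are highest in iWAT adipocytes (with TMM, Bcat2 did not differ between iWAT adipocytes and BAT by the test), whereas the 3 BCKDH subunit genes, Bckdk, Hibch and Hibadh have every BAT point above every white adipocyte point.

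Bcat1, the cytosolic transaminase (mm9 chromosome 6, 144942355 to 145024704, minus strand), ran from 1.60 to 2.67 RPKM in iWAT adipocytes, with a median of 2.01. It ran from 0.343 to 1.17 (median 0.662) in eWAT adipocytes, and from 0.0975 to 0.281 (median 0.140) in BAT. The 3 tissues did not overlap, in the order iWAT adipocytes, eWAT adipocytes, BAT. The log2 fold change was 1.60 ± 0.25 (SE) for iWAT over eWAT adipocytes (edgeR adjusted p = 0.000101), 3.004 ± 0.23 for iWAT adipocytes over BAT (edgeR adjusted p = 1.08e-08) and 1.42 ± 0.31 for eWAT adipocytes over BAT (edgeR adjusted p = 0.000641). This is an 8.02-fold difference between iWAT adipocytes and BAT, and Bcat1 was the only gene of the 10 that was lower in BAT than in both white preparations by this test (without TMM, Bcat2 was too). BAT libraries held 26 to 81 reads of it, so its level there rests on few reads, and 3.62% of its exonic bases are shared with another gene, Gm17263.

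Bcat2, the mitochondrial transaminase (chromosome 7, 52825523 to 52845080, plus strand), varied least between tissues of the 10 genes on the TMM scale. It ran from 10.0 to 14.5 RPKM (median 13.1) in iWAT adipocytes, from 7.58 to 10.0 (median 8.90) in eWAT adipocytes and from 5.96 to 9.16 (median 7.48) in BAT. The lowest iWAT library lay just under the highest eWAT library, and eWAT and BAT values overlapped. Bcat2 was higher in iWAT than in eWAT adipocytes, with a log2 fold change of 0.56 ± 0.11 (edgeR adjusted p = 0.000424). Its order against BAT depended on the scaling. With TMM it did not differ by the test from iWAT adipocytes (0.21 ± 0.11, edgeR adjusted p = 0.088), though it was higher in iWAT adipocytes without iWAT mouse 5 (0.29, edgeR adjusted p = 0.00836) or without BAT mouse 17 (0.26, edgeR adjusted p = 0.0497), and it was higher in BAT than in eWAT adipocytes (−0.32 ± 0.09, edgeR adjusted p = 0.005), a call that was lost with the mouse number as a block (−0.22, edgeR adjusted p = 0.1). Without TMM it was higher in both white preparations than in BAT (1.06, edgeR adjusted p = 5.61e-07, and 0.58, edgeR adjusted p = 0.000262). The Bcat2 row shares 15.95% of its exonic bases with 0610005C13Rik, whose own row held 5 to 22 reads against 534 to 1761 for Bcat2.

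The genes of the BCKDH core had the highest mean RPKM of the set in BAT. Bckdha encodes the alpha and Bckdhb the beta subunit of E1, the thiamine-dependent decarboxylase, and Dbt encodes E2, the acyltransferase on which the complex is built. Bckdha (chromosome 7, 26414871 to 26443780, minus strand) ran from 30.7 to 46.8 RPKM (median 42.4) in iWAT adipocytes, from 14.7 to 25.7 (median 19.8) in eWAT adipocytes and from 105 to 162 (median 139) in BAT. No values of 2 tissues overlapped, and by mean RPKM it ranked 250 among all symbols in BAT, 1141 in iWAT adipocytes and 2486 in eWAT adipocytes. It was 2.097-fold higher in iWAT than in eWAT adipocytes (log2 fold change 1.07 ± 0.15, edgeR adjusted p = 3.99e-05). It was 5.00-fold higher in BAT than in iWAT adipocytes (−2.32 ± 0.12, edgeR adjusted p = 1.4e-10) and 10.3-fold higher in BAT than in eWAT adipocytes (−3.37 ± 0.15, edgeR adjusted p = 9.97e-12), the largest differences in the direction of BAT among the 10 genes. Without TMM the log2 fold changes against BAT were −1.48 and −2.46, in the same direction.

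Bckdhb (chromosome 9, 83818757 to 84017847, plus strand) ran from 15.4 to 21.9 RPKM (median 18.4) in iWAT adipocytes, from 4.85 to 12.2 (median 10.6) in eWAT adipocytes and from 34.1 to 44.8 (median 40.7) in BAT, again without overlap. The log2 fold changes were 1.03 ± 0.22 for iWAT over eWAT adipocytes (edgeR adjusted p = 0.000917), −1.69 ± 0.10 for iWAT adipocytes over BAT (edgeR adjusted p = 3.66e-10) and −2.69 ± 0.20 for eWAT adipocytes over BAT (edgeR adjusted p = 5.03e-09). Dbt (chromosome 3, 116215988 to 116252899, plus strand) ran from 13.1 to 18.2 RPKM (median 16.9), from 5.14 to 9.60 (median 7.95) and from 26.6 to 38.4 (median 31.0) in the same order of tissues. Its tissues did not overlap either, with log2 fold changes of 1.09 ± 0.16, −1.53 ± 0.11 and −2.60 ± 0.15 (edgeR adjusted p = 4.73e-05, 3.96e-09 and 2.47e-10). The 3 subunit genes thus shared 1 order of tissues, BAT above iWAT adipocytes above eWAT adipocytes, also without TMM.

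The switch genes moved less between the white depots than the subunits did. Bckdk, the kinase that phosphorylates and inactivates E1 (chromosome 7, 135047587 to 135053178, plus strand), ran from 9.003 to 11.2 RPKM (median 10.5) in iWAT adipocytes, from 8.83 to 9.91 (median 9.09) in eWAT adipocytes and from 18.7 to 25.2 (median 23.0) in BAT. The white depots overlapped and BAT lay above both. The log2 fold change between the white depots was 0.18 ± 0.06 (edgeR adjusted p = 0.0234), the smallest of the set, and was not called without TMM (0.10, edgeR adjusted p = 0.17). Against BAT it was −1.74 ± 0.07 in iWAT adipocytes (edgeR adjusted p = 1.42e-11) and −1.90 ± 0.07 in eWAT adipocytes (edgeR adjusted p = 9.65e-13).

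Ppm1k, the mitochondrial phosphatase that reactivates E1 (chromosome 6, 57456491 to 57485489, minus strand), was low everywhere. It ran from 1.38 to 1.65 RPKM (median 1.54) in iWAT adipocytes, from 1.12 to 1.41 (median 1.28) in eWAT adipocytes and from 1.43 to 2.27 (median 1.96) in BAT, on 186 to 497 reads per library. The iWAT values overlapped those of both other tissues, while every BAT value was above every eWAT value. The log2 fold changes were 0.28 ± 0.08, −0.93 ± 0.11 and −1.18 ± 0.11 (edgeR adjusted p = 0.00572, 9.44e-07 and 6.9e-08), and both differences from BAT fell under the threshold without TMM (−0.08, edgeR adjusted p = 0.571, and −0.28, edgeR adjusted p = 0.0631).

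The distal enzymes act on the acyl-CoA products. Ivd, isovaleryl-CoA dehydrogenase of the leucine arm (chromosome 2, 118687690 to 118710952, plus strand), ran from 12.8 to 20.4 RPKM (median 16.7) in iWAT adipocytes, from 4.41 to 9.89 (median 6.97) in eWAT adipocytes and from 16.003 to 20.4 (median 18.3) in BAT. The eWAT values lay below all others, and the iWAT and BAT values overlapped. The log2 fold change was 1.29 ± 0.19 for iWAT over eWAT adipocytes (edgeR adjusted p = 5.32e-05) and −1.995 ± 0.16 for eWAT adipocytes over BAT (edgeR adjusted p = 1.49e-08). Between iWAT adipocytes and BAT it was −0.72 ± 0.11 (edgeR adjusted p = 2.67e-05), which turned to 0.13 without TMM (edgeR adjusted p = 0.309) and to −0.13 in limma on log2(RPKM + 0.1) (limma adjusted p = 0.266).

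Hibch and Hibadh follow each other in the valine arm, as 3-hydroxyisobutyryl-CoA hydrolase and 3-hydroxyisobutyrate dehydrogenase. Hibch (chromosome 1, 52901773 to 52986205, plus strand) ran from 6.58 to 10.7 RPKM (median 9.11) in iWAT adipocytes, from 1.63 to 4.50 (median 3.60) in eWAT adipocytes and from 15.5 to 19.95 (median 16.8) in BAT. Hibadh (chromosome 6, 52496222 to 52590383, minus strand) ran from 10.4 to 15.3 (median 12.9), from 4.55 to 8.68 (median 7.04) and from 21.3 to 26.1 (median 22.1). Neither gene overlapped between any 2 tissues. Hibch had log2 fold changes of 1.42 ± 0.22, −1.57 ± 0.12 and −2.96 ± 0.21 (edgeR adjusted p = 0.000107, 1.41e-08 and 2.94e-09) in the order iWAT over eWAT adipocytes, iWAT adipocytes over BAT and eWAT adipocytes over BAT. Those of Hibadh were 0.93 ± 0.16, −1.42 ± 0.11 and −2.33 ± 0.15 (edgeR adjusted p = 0.000171, 8.78e-09 and 7.08e-10). Levels of different genes are compared here only per kilobase of row, and the rows can be longer than a coding transcript: the Hibadh row has 10180 bases against 1825 in the longest GENCODE coding transcript, and the Hibch row 6453 against 1830.

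**Figure D2:**
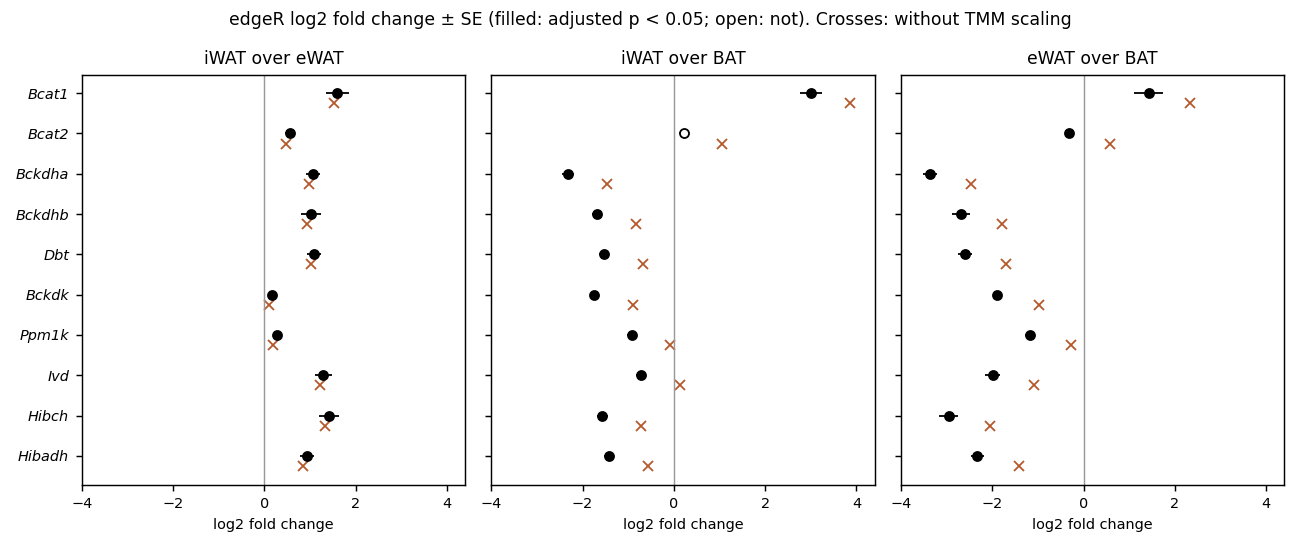
edgeR log2 fold change (horizontal axis) ± SE of the 10 genes in the 3 comparisons, with crosses for the value without TMM scaling. Bcat1 is the only gene to the right of 0 in all panels with and without TMM, and in the comparisons with BAT the crosses lie to the right of the points, which carries Ivd across 0 in 1 panel and Bcat2 across 0 in another.

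Ratios of 2 genes within a library do not depend on the scaling between libraries. The Bcat1 to Bcat2 ratio ran from 0.134 to 0.184 (median 0.159) in iWAT adipocytes, from 0.0452 to 0.117 (median 0.0753) in eWAT adipocytes and from 0.0117 to 0.0463 (median 0.0203) in BAT. The iWAT values lay above all others. The mean log2 ratio was 1.14 higher in iWAT than in eWAT adipocytes, 2.87 higher in iWAT adipocytes than in BAT and 1.73 higher in eWAT adipocytes than in BAT (two-sided exact permutation tests, p = 0.002165, 0.002165 and 0.00433, adjusted over the 9 ratio tests 0.0039, 0.0039 and 0.00649). With 6 mice per tissue, 0.002165 is the smallest p this test can give.

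The Bckdk to Ppm1k ratio, kinase over phosphatase, ran from 6.53 to 7.14 (median 6.81) in iWAT adipocytes, from 6.26 to 8.35 (median 7.32) in eWAT adipocytes and from 9.92 to 15.7 (median 11.9) in BAT. Every BAT library was above every white library, and the mean log2 ratio differed by −0.83 for iWAT adipocytes minus BAT and by −0.72 for eWAT adipocytes minus BAT (exact permutation p = 0.002165 in both, adjusted p = 0.0039). The white depots differed by −0.11, with p = 0.119 by the exact permutation test (adjusted p = 0.134). Without eWAT mouse 16 the same difference was −0.15 with an adjusted exact permutation p of 0.00731, so that 1 library decided this call.

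The Bckdha to Bckdhb ratio was higher in BAT (3.08 to 3.70, median 3.39) than in iWAT adipocytes (1.99 to 2.35, median 2.20). In eWAT adipocytes it ran from 1.74 to 3.23 (median 2.06) with 1 library inside the BAT range. The mean log2 ratio differed from BAT by −0.63 in iWAT adipocytes and by −0.61 in eWAT adipocytes (exact permutation p = 0.002165 and 0.00649, adjusted p = 0.0039 and 0.00835), and by −0.02 between the white depots (exact permutation p = 0.898, adjusted p = 0.898).

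**Figure D3:**
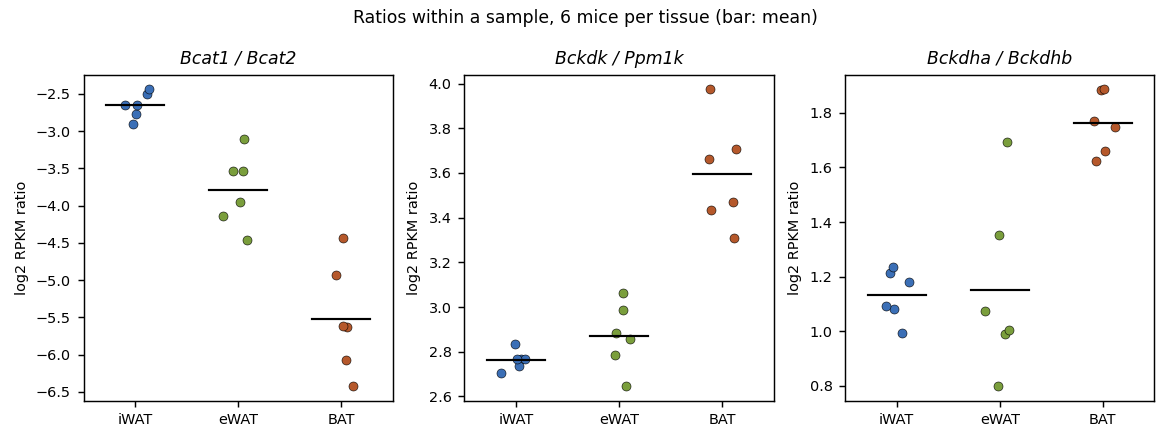
log2 RPKM ratio of 3 gene pairs within each library, with 6 mice per tissue and a bar at the mean. Bcat1/Bcat2 falls from iWAT to eWAT adipocytes to BAT, and for Bckdk/Ppm1k all BAT points lie above all white points.

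Among 24 other genes of the pathway, 19 were higher in iWAT than in eWAT adipocytes, 4 were lower and 1 did not pass, with a median log2 fold change of 0.995. Over all genes, 34.1% were called higher and 34.5% lower. Against BAT, 19 were higher in BAT and 5 in iWAT adipocytes (median −0.97), beside 37.2% and 38.1% of all genes. Likewise 19 were higher in BAT and 4 in eWAT adipocytes, with 1 that did not pass (median −1.99), beside 41.4% and 41.1% of all genes. RPKM values did not overlap, in either direction, for 21, 14 and 21 of the 24 genes, against 44%, 65.3% and 68.4% of all genes. For iWAT adipocytes and BAT the share was thus no higher than among all genes. With TMM, the genes that departed from the order BAT, iWAT adipocytes, eWAT adipocytes were mostly those of uptake across the plasma membrane. Without TMM, 10 genes were higher in BAT than in iWAT adipocytes, 7 were lower and 7 did not pass, and 17 were higher in BAT than in eWAT adipocytes, 5 were lower and 2 did not pass. Of all genes without TMM, 3054 of 19745 were higher in BAT than in iWAT adipocytes and 4066 of 20076 than in eWAT adipocytes.

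The plasma membrane carriers had a different tissue order from the enzymes. Slc7a5 (LAT1), which exchanges large neutral amino acids and pairs with the heavy chain Slc3a2, ran from 1.19 to 3.63 RPKM in iWAT adipocytes, from 1.94 to 3.58 in eWAT adipocytes and from 0.0495 to 0.147 in BAT. Its log2 fold change was 3.55 ± 0.27 for iWAT adipocytes over BAT (edgeR adjusted p = 7.56e-09) and 4.11 ± 0.18 for eWAT adipocytes over BAT (edgeR adjusted p = 1.45e-11). BAT libraries held 4 to 20 reads of Slc7a5, so its level there rests on few reads. Slc3a2 itself was 3.62-fold higher in iWAT adipocytes than in BAT and 4.10-fold higher in eWAT adipocytes than in BAT (edgeR adjusted p = 1.66e-10 and 4.6e-11). Slc7a8 (LAT2), a related exchanger, was 16.6-fold and 28.1-fold higher (edgeR adjusted p = 4.38e-12 and 1.48e-12), with 5.68 to 8.20 RPKM in iWAT adipocytes, 9.44 to 14.97 in eWAT ones and 0.159 to 0.388 in BAT, there on only 21 to 86 reads per library. All 3 were also lower in iWAT than in eWAT adipocytes, by log2 fold changes of −0.53 for Slc7a5, −0.15 for Slc3a2 and −0.74 for Slc7a8 (edgeR adjusted p = 0.0426, 0.0327 and 0.000127), as was Slc43a2 (LAT4) by −2.0 (edgeR adjusted p = 7.73e-07). Unlike the other 3, Slc43a2 was higher in BAT than in iWAT adipocytes (−0.86 ± 0.13, edgeR adjusted p = 1.77e-05). That call was lost without TMM (−0.02, edgeR adjusted p = 0.925). It was also lost in limma on log2(RPKM + 0.1) and log2(RPKM + 1) (−0.24 and −0.19, limma adjusted p = 0.177 and 0.174). Slc43a2 was higher in eWAT adipocytes than in BAT (1.17 ± 0.17, edgeR adjusted p = 1.04e-05). Between the white depots, the calls of Slc7a8 and Slc43a2 held in every alternative, but those of Slc7a5 and Slc3a2 did not. Slc7a5 passed in only 2 of the 12 fits that left out 1 library, without iWAT mouse 5 or eWAT mouse 4 (edgeR adjusted p from 0.000651 to 0.0901 over the 12). It did not pass with lane as a covariate (edgeR adjusted p = 0.0573) or without the filter on low counts (edgeR adjusted p = 0.0519). Nor did it pass without eWAT mice 1 and 3 together (−0.47, edgeR adjusted p = 0.117). Slc3a2 lost its call in 7 of the 12, without iWAT mouse 1, 3, 4 or 5 or eWAT mouse 2, 3 or 4 (edgeR adjusted p from 0.0169 to 0.0805 over the 12), and with the mouse number as a block (edgeR adjusted p = 0.0602), with lane (0.0587), without the filter (0.185) and with all 18 libraries fitted together (0.0978). Macrophage markers were also higher in eWAT than in iWAT adipocytes and lowest in BAT. With TMM, Slc43a2 was lowest in iWAT adipocytes, though its call between iWAT adipocytes and BAT did not hold in every alternative. The part of macrophage RNA in the carrier levels was not tested.

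Slc43a1 (LAT3) was the carrier with higher levels in iWAT than in eWAT adipocytes (1.01 ± 0.26, edgeR adjusted p = 0.00395), at 0.276 to 0.726 RPKM, and its difference between eWAT adipocytes and BAT did not pass with TMM (0.42 ± 0.24, edgeR adjusted p = 0.11). That difference was called without TMM (1.32, edgeR adjusted p = 5.54e-05) and without eWAT mouse 3 (0.53, edgeR adjusted p = 0.0448). BAT libraries held 14 to 30 reads of Slc43a1, so its level there also rests on few reads. The mitochondrial BCAA carrier Slc25a44 followed the enzymes instead. It ran from 20.1 to 23.9 RPKM in BAT, 12.3 to 16.05 in iWAT adipocytes and 8.43 to 11.2 in eWAT adipocytes, without overlap, with log2 fold changes of 0.60 ± 0.10, −1.17 ± 0.09 and −1.74 ± 0.09 (edgeR adjusted p = 0.000116, 1.21e-08 and 4.48e-11).

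Dld, the E3 subunit that BCKDH shares with the pyruvate and 2-oxoglutarate dehydrogenase complexes, was 5.198-fold higher in BAT than in iWAT adipocytes and 7.90-fold higher than in eWAT adipocytes (edgeR adjusted p = 2.67e-11 and 5.52e-12), at 105 to 138 RPKM in BAT. In the leucine arm, the methylcrotonyl-CoA carboxylase subunits Mccc1 and Mccc2 were 2.41-fold and 2.61-fold higher in iWAT than in eWAT adipocytes (edgeR adjusted p = 0.00013 and 0.000186). Their log2 fold changes for iWAT adipocytes over BAT, −0.74 and −0.55 with TMM, were 0.10 and 0.30 without it.

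In the isoleucine and valine arms, 6 of 6 genes were higher in iWAT than in eWAT adipocytes and 6 of 6 had more mRNA in BAT than in iWAT and than in eWAT adipocytes. Of all genes, 34.1% were called higher in iWAT than in eWAT adipocytes. Higher levels in BAT were called for 37.2% against iWAT and 41.4% against eWAT adipocytes. Acat1, the mitochondrial thiolase that ends the isoleucine arm, was 4.34-fold and 10.7-fold higher in BAT (edgeR adjusted p = 5.22e-11 and 3.94e-11). Acadsb, the short/branched-chain acyl-CoA dehydrogenase, was closest between iWAT adipocytes and BAT (−0.42 ± 0.11, edgeR adjusted p = 0.00292) and changed direction without TMM (0.43, edgeR adjusted p = 0.00319). Without TMM, 3 of the 6 (Acad8, Echs1 and Acat1) were higher in BAT than in iWAT adipocytes, Hsd17b10 (−0.06, edgeR adjusted p = 0.534) and Aldh6a1 (0.20, edgeR adjusted p = 0.161) did not pass, and 6 of 6 were still higher in BAT than in eWAT adipocytes. Of all genes without TMM, 3054 of 19745 were higher in BAT than in iWAT adipocytes and 4066 of 20076 than in eWAT adipocytes. In the propionyl-CoA arm, 6 of 7 genes were higher in iWAT than in eWAT adipocytes and 7 of 7 were higher in BAT than in either with TMM. Without TMM, 4 of the 7 were higher in BAT than in iWAT adipocytes, while Mut (−0.24), Mmab (−0.17) and Mmadhc (0.17) did not pass (edgeR adjusted p = 0.0928, 0.141 and 0.145), and 6 of the 7 were higher in BAT than in eWAT adipocytes, Mmadhc (−0.13, edgeR adjusted p = 0.262) being the exception. Mmaa, which serves the cobalamin cofactor of methylmalonyl-CoA mutase, differed most, 6.42-fold and 11.0-fold (edgeR adjusted p = 1.07e-11 and 4.81e-13), while Mcee, the epimerase, did not pass between the white depots (0.17 ± 0.09, edgeR adjusted p = 0.108), though it did without iWAT mouse 5 (0.22, edgeR adjusted p = 0.0315).

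Klf15, a transcription factor known to induce BCAA breakdown genes, had another order of tissues. It ran from 4.72 to 9.07 RPKM in iWAT adipocytes, from 0.656 to 3.68 in eWAT adipocytes and from 2.104 to 6.02 in BAT. It was 3.96-fold higher in iWAT than in eWAT adipocytes (edgeR adjusted p = 0.000118) and higher in iWAT adipocytes than in BAT (log2 fold change 0.55 ± 0.23, edgeR adjusted p = 0.0381), whereas BAT was above eWAT adipocytes (−1.42 ± 0.33, edgeR adjusted p = 0.000918; −0.51 and not called without TMM, edgeR adjusted p = 0.133). The difference between iWAT adipocytes and BAT passed in only 3 of the 12 fits that left out 1 library, without iWAT mouse 2 or 5 or BAT mouse 17 (edgeR adjusted p from 0.00239 to 0.0893 over the 12).

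**Figure D4:**
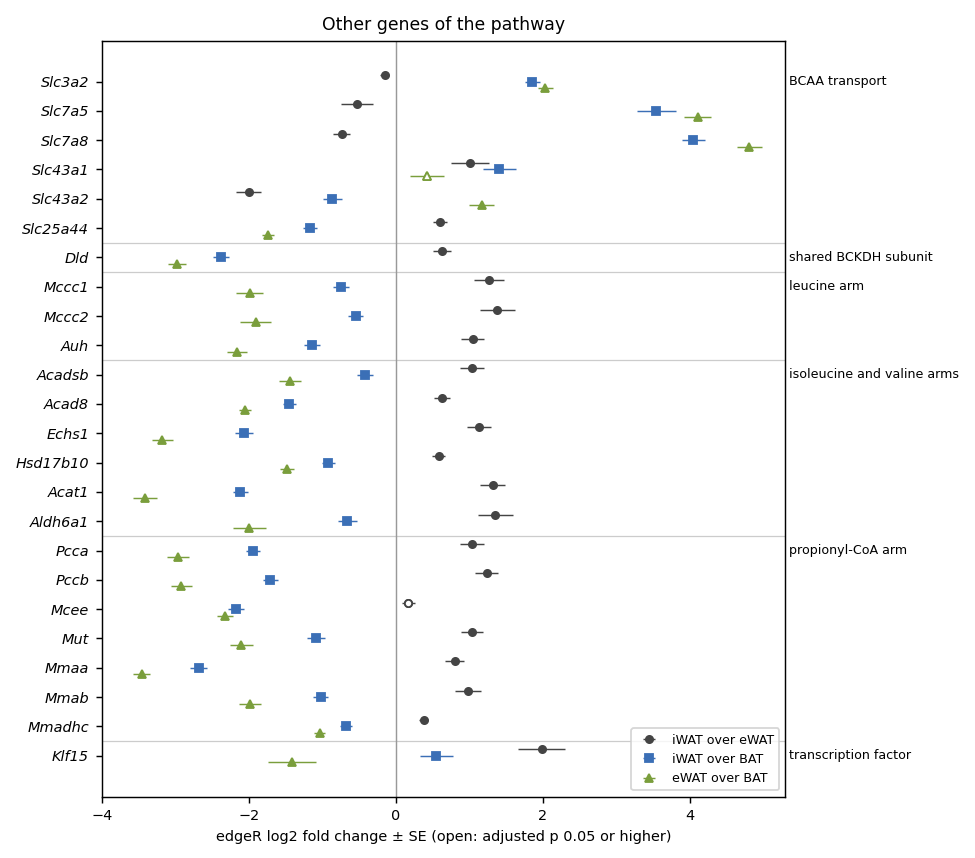
edgeR log2 fold change ± SE of 24 other pathway genes, grouped by role, with 1 symbol shape per comparison and open symbols where the adjusted p was 0.05 or higher. Slc3a2, Slc7a5 and Slc7a8 lie to the right of 0 against BAT, while Slc25a44, Dld and the enzymes lie to the left.

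Most of 13 other mitochondrial genes moved in the same direction with TMM. Of these reference genes, which are nuclear-encoded and serve mitochondrial import, folding, membranes and matrix, 12 were higher in BAT than in iWAT adipocytes and 11 were higher in BAT than in eWAT adipocytes, with median log2 fold changes of −1.31 and −1.86 beside −1.47 and −2.16 for the 10 BCAA genes. Higher levels in BAT were called for 37.2% and 41.4% of all genes. Without TMM, 8 of the 13 were higher in BAT and 1 was lower against iWAT adipocytes (median −0.46), and 9 were higher and 2 were lower against eWAT adipocytes (median −0.95), beside medians of −0.62 and −1.25 for the 10 BCAA genes. Higher levels in BAT were then called for 3054 of 19745 genes against iWAT adipocytes and for 4066 of 20076 against eWAT adipocytes. Between the white depots, the reference genes had a median of 0.31 (8 with more mRNA in iWAT and 2 in eWAT adipocytes), beside 1.05 for the 10 genes. Summed, the reference ran from 697 to 886 RPKM in BAT, from 339 to 422 in iWAT adipocytes and from 323 to 368 in eWAT adipocytes. The part of mitochondrial content in the levels of the BCAA genes was not tested.

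Skeletal muscle also breaks down BCAAs, and 7 muscle markers summed to 1.74 to 121 RPKM in BAT, 4.49 to 17.5 in iWAT adipocytes and 1.52 to 5.19 in eWAT adipocytes. By edgeR, 7 of 7 had more mRNA in BAT than in iWAT and than in eWAT adipocytes, beside 37.2% and 41.4% of all genes. The part of muscle RNA in the levels of the BCAA genes in BAT was not tested.

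Mice of a tissue varied together in most of the 10 genes. In iWAT adipocytes, mouse 5 was the lowest in 10 of 10 genes and mouse 16 the highest in 7. In eWAT adipocytes, mice 1 and 3 were the lowest pair in 7 of the 10 genes, the exceptions being Bcat2, Bckdk and Ppm1k. These 2 libraries also had the lowest adipocyte marker sums of the depot, 760 and 557 RPKM against 1413 to 1954 in the other 4 mice, and the highest macrophage sums, 1264 and 1342 against 889 to 1037. Without them, 10 of 10 genes were again higher in iWAT than in eWAT adipocytes, with log2 fold changes of 0.90 for Bckdha, 0.73 for Bckdhb, 1.15 for Hibch and 1.32 for Bcat1 (edgeR adjusted p = 0.000115, 0.000177, 4.32e-05 and 0.00017), and 9 were higher in BAT than in eWAT adipocytes. Of all genes, 5777 of 19542 were then higher in iWAT than in eWAT adipocytes, and 8160 of 20002 were higher in BAT than in eWAT adipocytes. The coefficient of variation in eWAT adipocytes was 34.0% for Bckdhb and 33.8% for Hibch but 4.70% for Bckdk and 8.01% for Ppm1k.

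Within iWAT and eWAT adipocytes, Bckdha followed Adipoq, the adipocyte hormone gene, across the 6 mice of a depot. Pearson's r on log2(RPKM + 0.1) was 0.966 in iWAT adipocytes (exact permutation p = 0.00417) and 0.937 in eWAT adipocytes (exact permutation p = 0.00694), both with an adjusted p of 0.0208 over 6 relations. Spearman's rho was 0.943 in each (exact permutation p = 0.0167, adjusted p = 0.05, at the threshold and not under it). Without the 2 mice farthest from the Adipoq median, r was 0.829 and 0.966. In BAT, r was 0.413 and rho was 0.371 (exact permutation p = 0.424 and 0.497, adjusted p = 0.465 and 0.497), and r was 0.559 without the 2 farthest mice. Differences in r between tissues were not tested, and both genes of a pair share the library and its scaling.

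Bcat1 did not follow the macrophage gene Cd68 by these tests. Pearson's r was 0.588 in BAT, −0.824 in eWAT and −0.379 in iWAT adipocytes (exact permutation p = 0.188, 0.0514 and 0.465, adjusted p = 0.281, 0.103 and 0.465). Spearman's rho in the same order was 0.600, −0.886 and −0.486 (exact permutation p = 0.242, 0.0333 and 0.356, adjusted p = 0.362, 0.0667 and 0.427). Without the 2 mice farthest from the Cd68 median, r was −0.221, −0.470 and −0.468, so that its sign in BAT rests on those mice. Bcat1 levels in BAT rest on few reads.

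**Figure D5:**
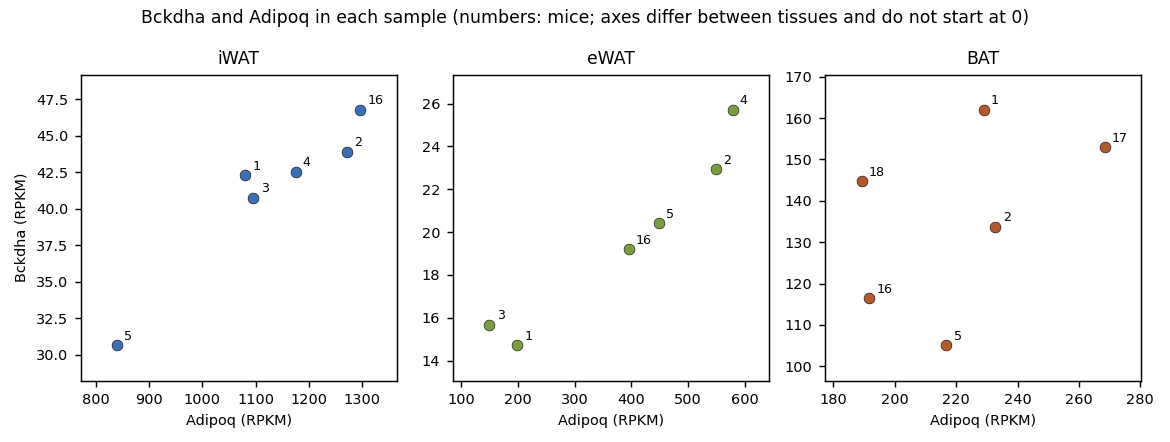
Bckdha RPKM against Adipoq RPKM in each library, 1 panel per tissue with its own axes, numbered by mouse. In the white depots the points rise together, with iWAT mouse 5 and eWAT mice 1 and 3 at the low end, and in BAT they are scattered.

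Across all 18 libraries, the BCAA genes other than the transaminases resembled Bckdha. Pearson's r with Bckdha on log2(RPKM + 0.1) was 0.969 for Bckdhb, 0.968 for Hibadh, 0.967 for Dbt, 0.946 for Hibch, 0.940 for Bckdk, 0.818 for Ivd and 0.795 for Ppm1k, but −0.312 for Bcat2 and −0.543 for Bcat1. These are descriptions over 3 tissues of 6 libraries, mostly of the differences between tissues. Among 14076 other symbols with a mean of at least 1 RPKM, the most like Bckdha were Uck1, C030006K11Rik, Ndufv3, Lrrc24 and Ech1, with r from 0.996 to 0.998. Ndufv3 encodes a subunit of respiratory complex I and Ech1 an enzyme of fatty acid oxidation, and their mean levels were 72.4 and 333 RPKM in BAT, 29.4 and 114 in iWAT adipocytes and 17.5 and 55.4 in eWAT adipocytes. The most like Bcat1 were Kcnk2, AK038305, Fgf10, ENSMUSG00000021708 and 9330159F19Rik, with r from 0.981 to 0.986. Kcnk2 is a potassium channel gene and Fgf10 a growth factor gene, at 3.97 and 15.1 RPKM in iWAT adipocytes, 1.155 and 5.354 in eWAT and 0.309 and 0.713 in BAT.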

How the data were processed

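Libraries were grouped by tissue from their labels. A treatment field of the labels names regular chow, against the titles and the methods, and the libraries were taken as HFD; the substrain of C57BL/6 differs between sources. Reads were mapped by the authors to mm9, with HISAT2 2.1.0 and cutadapt 1.16 listed in the submitters' processing notes; the counting program, annotation and strand setting are not given in the sources used here. The authors deposited read counts per row (whole numbers). The authors also deposited RPKM, computed from the counts, the row length and 1 total per file.

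A single row per symbol was kept, that with the highest mean RPKM over the 18 libraries. Counts were compared on the 12 libraries of each pair of tissues with edgeR 4.0.16 in R 4.3.3 (glmQLFit and glmQLFTest, TMM), for genes whose counts averaged 10 or more, with Benjamini-Hochberg adjustment over all genes tested and a threshold of 0.05. The SE was derived from the F statistic. Ratios and correlations used exact permutation tests (scipy 1.17.1), two-sided. The code was tested on simulated counts. The 10 genes, the other lists and the rule for named genes (all genes of the pathway lists, marker and reference lists by count and sum with up to 2 genes each, and the 5 genes most like Bckdha and Bcat1) were chosen with earlier results of these data known. The lymphocyte, endothelial, fibroblast and progenitor, and mesothelial lists summed to at most 1.85, 550, 662 and 9.91 RPKM in any library, with medians of 0.953, 299, 580 and 2.31 in iWAT adipocytes, 1.00, 97.0, 165 and 3.26 in eWAT adipocytes and 0.687, 124, 42.3 and 8.47 in BAT. The mesothelial sum in BAT was almost all Lrrn4 (mean 8.30 RPKM), and 3 of the 5 genes had at most 3 reads in every BAT library. The fibroblast and progenitor sum was mostly Dpt in iWAT adipocytes (mean 476 RPKM, against 85.9 in eWAT adipocytes). Of its 5 genes, 1 was higher in iWAT than in eWAT adipocytes by edgeR and 4 did not pass. The macrophage gene Adgre1 had no row under that symbol and was listed as Emr1.

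Mouse numbers in the titles were taken to mark the same animal. Deviations of same-numbered libraries from their tissue means correlated at −0.241 to 0.420 in the white depots (6 pairs), −0.143 to 0.0979 for iWAT adipocytes and BAT (4 pairs) and −0.0383 to 0.0668 for eWAT adipocytes and BAT (4 pairs). Those of differently numbered libraries correlated at −0.4311 to 0.4535, −0.1855 to 0.1829 and −0.087 to 0.0952 in the same order. The correlations thus do not show that same-numbered libraries came from the same animal. No 2 libraries of a tissue differed by as little as counting noise (lowest chi-square over its degrees of freedom 14.3). Alternatives were DESeq2 1.42.0, limma 3.58.1 on log2 RPKM with 0.1 or 1 added, no TMM, no filter, all libraries in a single fit, summed rows, lane or mouse as a covariate, and leaving out libraries. A further gene of the pathway is not reported here.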

Additional observations from a re-analysis of the deposited data

Results flagged for a closer look

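In iWAT adipocytes, mouse 5 lay far below the other 5 mice, by the gap to its neighbour relative to the range of the group, for 3 of the 10 genes. Bcat2, the mitochondrial transaminase, was at 10.0 RPKM there against 12.9 to 14.5 in the others. Bckdha was at 30.7 RPKM against 40.7 to 46.8, and the kinase gene Bckdk at 9.003 against 10.4 to 11.2. Chance flags about 1 in 20 groups, which is 1.95 of the 39 groups of genes and ratios examined. The same library had the lowest adipocyte marker sum of its depot, 2868 RPKM. Without it, Bcat2 became higher in iWAT adipocytes than in BAT (log2 fold change 0.29, edgeR adjusted p = 0.00836).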

How the results depend on the processing

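The number of the 10 genes that differed was 9 to 10 for iWAT over eWAT adipocytes, 8 to 10 for iWAT adipocytes over BAT and 9 to 10 for eWAT adipocytes over BAT over all alternatives; for the 24 other genes it was 21 to 23, 17 to 24 and 22 to 24. For single genes under alternatives, 613 values kept their direction and side of the threshold, 7 fell under it, 6 passed it and 4 turned direction. For Bcat2 in eWAT adipocytes over BAT, the log2 fold change turned to 0.58 without TMM and to 0.27 and 0.25 with limma on log2(RPKM + 0.1) and log2(RPKM + 1), and for Ivd in iWAT adipocytes over BAT to 0.13 without TMM. With the replicate block (mouse number), Bcat2 in eWAT adipocytes over BAT was −0.22 (edgeR adjusted p = 0.1) and no other call of the 10 genes changed; in the comparisons with BAT only 4 mice are shared.

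The log2 Bcat1 to Bcat2 ratio of eWAT adipocytes over BAT was 0.27 with 1 RPKM added to both genes (adjusted exact permutation p = 0.0612), and the same addition took the ratio of iWAT over eWAT adipocytes from 1.14 to 0.38 and that of iWAT adipocytes over BAT from 2.87 to 0.65 (adjusted exact permutation p = 0.00649 and 0.0039). The Bckdha to Bckdhb difference between the white depots, not called, was 0.032 with 1 RPKM added and ran from −0.0898 to 0.0889 with 1 library left out. The Bckdk to Ppm1k difference between the white depots ran from −0.152 to −0.0688 with 1 library left out. The Bcat1 to Cd68 correlation in BAT turned to −0.221 without the 2 farthest mice. The cause of these changes was not tested.

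Low counts limit Bcat1 in BAT, and preparation, lane and tissue are confounded there. Leaving out eWAT mice 1 and 3 together was chosen after seeing the data.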

Other observations

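The reference genes of other mitochondrial functions did not all follow the BCAA genes. Cs, citrate synthase, had the largest difference from BAT of the 13, at a log2 fold change of −2.40 ± 0.12 in iWAT adipocytes and −3.16 ± 0.13 in eWAT adipocytes (edgeR adjusted p = 9.51e-11 and 4.93e-12), and was also higher in iWAT than in eWAT adipocytes (0.78 ± 0.14, edgeR adjusted p = 0.000241). Vdac2, an outer membrane channel, was higher in eWAT than in iWAT adipocytes (−0.73 ± 0.07, edgeR adjusted p = 2.8e-06), and Tomm20, an import receptor, did not pass between iWAT adipocytes and BAT (0.06 ± 0.09, edgeR adjusted p = 0.553), though without TMM Tomm20 was higher in iWAT adipocytes (0.91, edgeR adjusted p = 2.42e-06).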
